A study of Homo sapiens with 15 samples.

Results

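VCaP cells that received the second of the study's siRNAs against ERG were compared with VCaP cells that received a non-targeting siRNA, on 3 expression arrays each, out of 15 arrays in the series. VCaP is an established human prostate cancer line. It holds the fusion of TMPRSS2 with ERG and grows in response to androgen. Arrays were taken by their treatment label. Cells were treated with ERG siRNA 2 for 72 h; control cells were given the non-targeting siRNA, and the sources used here give no time for it. A further 3 arrays of ERG siRNA 1, also at 72 h, served for a direct comparison of both ERG siRNAs, and 3 arrays of cells in the vehicle DMSO gave a second control level. All cells were of the same line and were grown in DMEM with fetal bovine serum. Neither sequence nor dose of the siRNAs is stated in the labels. Whether replicates were grown as separate cultures is not stated in the labels, and the p-values therefore cover the spread of the arrays alone, part or all of which may be technical.

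ERG belongs to the ETS family of transcription factors, which bind DNA at a short core around GGAA. In many prostate cancers a rearrangement places ERG under the promoter of TMPRSS2, a membrane protease gene that the androgen receptor switches on, so that prostate cells make a factor that normal luminal cells lack. ERG binding sites lie close to those of the androgen receptor at many prostate genes, and ERG is known to dampen part of the androgen program while adding genes of its own. An siRNA guides the cell's RNA interference machinery to cleave the matching mRNA.

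Each array measured 47322 probes of the Illumina HumanHT-12 v4 BeadChip, a glass slide of beads whose brightness follows the amount of labelled cRNA. Intensities were background-corrected, quantile normalised and put on the log2 scale, and 12744 genes with a detected probe were tested. Mean raw intensity was 444, 402 and 392 on the ERG siRNA 2 arrays, against 414, 459 and 407 on the non-targeting arrays. The ERG siRNA 2 arrays had 20165, 19410 and 20006 detected probes, against 18835, 19406 and 18460 on the non-targeting arrays, so that every ERG siRNA 2 array detected more probes than every non-targeting array. Over the genes tested, array pairs within ERG siRNA 2 correlated at 0.9959 to 0.9962, pairs within the non-targeting group at 0.9952 to 0.9957, and pairs across both groups at 0.9887 to 0.9901. These correlations run across genes, which are not independent replicates. In bulk RNA such as this, fewer cells of a type and less RNA per cell cannot be told apart.

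ERG, the targeted gene, was measured first as a check of the labels. The tested ERG probe read 5.57, 4.81 and 5.29 on the log2 scale on the ERG siRNA 2 arrays, against 6.13, 6.04 and 5.84 on the non-targeting arrays. All 3 ERG siRNA 2 arrays lay below all 3 non-targeting arrays, and replicate 2 was the lowest. The difference was -0.78 ± 0.18 (log2 ± SE; 95% confidence interval -1.17 to -0.38; limma adjusted p = 0.00788), which left 58.3% of the normalised intensity (44.4 to 76.6%). The probe was dim. Its raw intensity was 153, 122 and 132 on the ERG siRNA 2 arrays, of which replicates 1 and 3 passed the detection threshold, against 167, 178 and 152 on the non-targeting arrays, all 3 of which passed. On the raw scale the groups thus overlapped in 1 array of each. With 1 array left out at a time the difference lay between -0.95 and -0.57, and the adjusted p stayed under 0.05. It was -0.26 without background correction and -1.18 with the authors' processed values. The other 2 ERG probes on the array gave -0.26 and 0.035 and were each detected on 2 of the 15 arrays, which is below the filter. Which part of ERG, or of the fusion transcript, each probe measures was not analysed here.

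**Figure D1:**
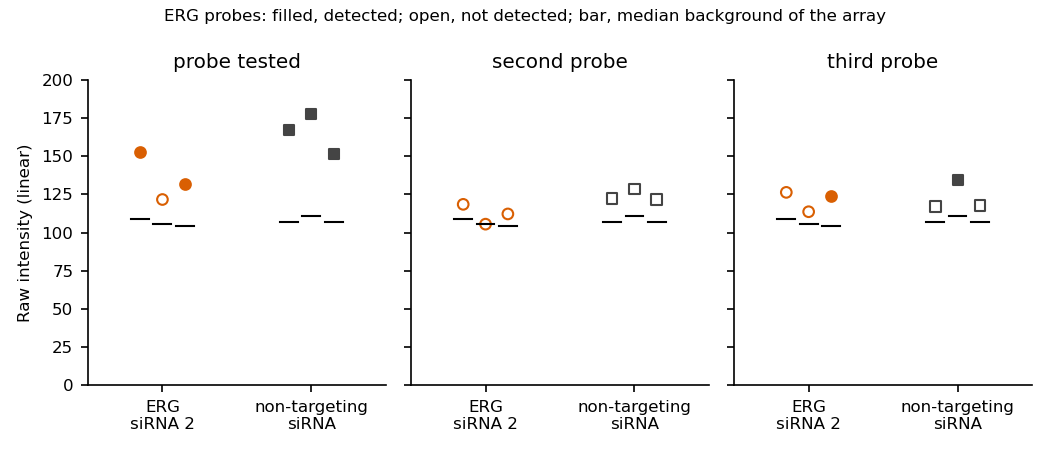
Raw intensity (linear scale, y axis) of the 3 ERG probes on each array of ERG siRNA 2 (circles) and the non-targeting siRNA (squares), with filled symbols for arrays on which the probe was detected and a bar for the median background of the array. The tested probe read 122 to 153 with ERG siRNA 2 and 152 to 178 with the non-targeting siRNA, and most readings of the other probes lay near background and were not detected.

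ERG siRNA 2 changed 2372 of the 12744 genes at a limma adjusted p under 0.05 (18.6%). Of these, 1277 rose (10.0%) and 1095 fell (8.59%). At least 1.5-fold changes were called for 467 genes (3.66%), 297 up (2.33%) and 170 down (1.33%), and changes of at least 2-fold for 61 genes up and 41 down. Changes were mostly small: called genes had a median absolute change of 0.40 on the log2 scale, and the median SE over all genes was 0.10. The median change over all genes was 0.0013. The arrays of both groups did not overlap in 4635 of the 12744 genes (36.4%), and in 2338 of the 2372 called genes. A statement below that the groups of a called gene did not overlap therefore adds little to its call. Rises made up 53.8% of the calls; with median scaling in place of quantile normalisation they made up 67.2%, with 1078 genes up and 526 down. The number of arrays limits the precision. Genes just inside the threshold were PNPLA2 at -0.25 and TRIP12 at 0.33, and just outside it were SCARB2 at 0.21 and PLK1 at -0.41.

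**Figure D2:**
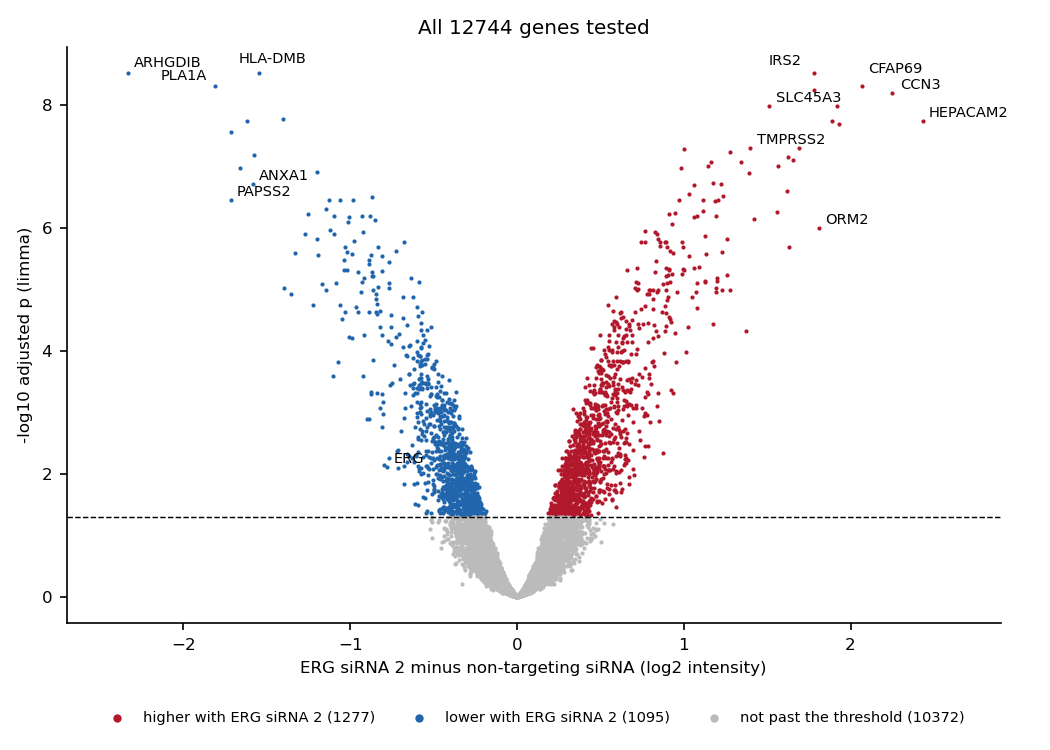
Difference in log2 intensity, ERG siRNA 2 minus non-targeting siRNA (x axis), against -log10 of the limma adjusted p (y axis), 1 point per gene, with the dashed line at an adjusted p of 0.05. The 1277 red points rose and the 1095 blue points fell; ERG itself sits at -0.78, well inside the span of the largest changes.

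HEPACAM2, an adhesion molecule of the immunoglobulin family, had the largest rise. Its log2 intensity was 8.24, 8.53 and 8.38 with ERG siRNA 2, against 5.95, 6.23 and 5.67 with the non-targeting siRNA. The lowest ERG siRNA 2 array was about 2 log2 units above the highest non-targeting array, and the change was 2.43 ± 0.14 (5.4-fold; adjusted p = 1.83e-08). A second HEPACAM2 probe gave 2.45. CCN3, a secreted matricellular protein, read 9.53, 9.40 and 9.54 with ERG siRNA 2, against 7.17, 7.07 and 7.48 with the non-targeting siRNA, a change of 2.25 ± 0.11. The cilium and flagellum gene CFAP69 read 9.68, 9.54 and 9.60, against 7.52, 7.45 and 7.64, a change of 2.07 ± 0.099. In both genes the groups were far apart compared with the spread within them. IRS2, which couples the insulin and IGF receptors to PI3-kinase, read 12.29, 12.13 and 12.20 with ERG siRNA 2, against 10.52, 10.33 and 10.42 with the non-targeting siRNA, and rose by 1.78 ± 0.079 (adjusted p = 3.06e-09).

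The other genes among the 15 largest rises fell into several kinds of protein. Of neuronal genes, LRRTM4, a synaptic adhesion protein, rose by 1.93 ± 0.11 and NEFH, the heavy neurofilament subunit, by 1.92 ± 0.10. ATOH1, a helix-loop-helix transcription factor of secretory and sensory cells, rose by 1.63 ± 0.15; it read 6.61, 7.05 and 6.64 with ERG siRNA 2, against 5.12, 5.46 and 4.82 with the non-targeting siRNA, where 2 of 3 arrays detected it. Of secreted and cell-surface enzymes, the protease ADAMTS1 rose by 1.69 ± 0.11 and the peptidase MME, also called neprilysin or CD10, by 1.63 ± 0.10. PLOD2, which hydroxylates lysines of collagen, rose by 1.62 ± 0.12 (second probe 0.83), and the laminin-related guidance protein NTN4 by 1.56 ± 0.10 (second probe 0.27). BBS4, part of the BBSome that carries membrane proteins to cilia, rose by 1.78 ± 0.088, and TSC22D3, the glucocorticoid-induced leucine zipper, by 1.65 ± 0.11 (second probe 0.94). The tested probes of MYLK, the myosin light chain kinase, and ORM2, an acute-phase plasma protein with the near-identical copy ORM1, were detected on all 3 ERG siRNA 2 arrays and on 0 of 3 non-targeting arrays. They were at least 2.9-fold and at least 2.66-fold higher with ERG siRNA 2; a second MYLK probe gave 0.43. Adjusted p-values of the 15 rises lay between 3.06e-09 and 2.06e-06.

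ARHGDIB, a gene known for its high expression in blood cells, had the largest fall. It read 7.95, 8.01 and 8.09 with ERG siRNA 2, against 10.38, 10.41 and 10.26 with the non-targeting siRNA, a change of -2.33 ± 0.11 (5.04-fold lower; adjusted p = 3.06e-09). No ERG siRNA 2 array came within 2 log2 units of a non-targeting array. PLA1A, a phospholipase that acts on phosphatidylserine, read 8.84, 8.84 and 8.81 with ERG siRNA 2, against 10.66, 10.63 and 10.63 with the non-targeting siRNA, and fell by 1.81. HLA-DMB, which loads peptides onto MHC class II molecules, read 8.77, 8.74 and 8.69, against 10.21, 10.35 and 10.28, and fell by 1.55. Both were tight within each group, with a span of at most 0.14 on the log2 scale. The Wnt ligand WNT2 read 5.59, 5.79 and 5.86, against 7.31, 7.46 and 7.33, and the annexin ANXA1, which binds phospholipids and limits inflammation, read 6.08, 6.24 and 6.05, against 7.59, 7.72 and 7.79. Their changes were -1.62 ± 0.091 and -1.58 ± 0.11, with no overlap of the groups.

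Further genes among the 15 largest falls were ACKR3, a decoy receptor for the chemokine CXCL12 (-1.58 ± 0.10), MGP, a secreted inhibitor of calcification (-1.66 ± 0.11; second probe -1.63), and PAPSS2, which makes the sulfate donor of sulfotransferases (-1.72 ± 0.13). BRINP1, a gene of neuronal cells, changed by -1.71 ± 0.10, the very-low-density lipoprotein and reelin receptor VLDLR by -1.25 ± 0.10, and TMEM158, a membrane protein known as a Ras-induced gene, by -1.40 ± 0.078. Of cytoskeletal genes, the smooth muscle actin ACTA2 changed by -1.33 ± 0.12 and the endosomal kinesin KIF16B by -1.36 ± 0.15. SIPA1L2, a Rap GTPase activator, changed by -1.27 ± 0.11. MYH13, a myosin of eye muscles, changed by -1.40 ± 0.15 but was detected on 1 of 3 ERG siRNA 2 arrays. Adjusted p-values of the 15 falls lay between 3.06e-09 and 1.18e-05. All 30 of these genes kept their direction and their call under each of the 17 other settings tried. The size of the change was less stable for some. Over these settings ORM2 lay between 0.65 and 2.93, MYLK between 0.69 and 2.97, ATOH1 between 0.65 and 2.27, and MYH13 between -2.20 and -0.49. By contrast IRS2 lay between 1.72 and 1.83 and ARHGDIB between -2.45 and -1.98. Whether the order by size held under the other settings was not tested.

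**Figure D3:**
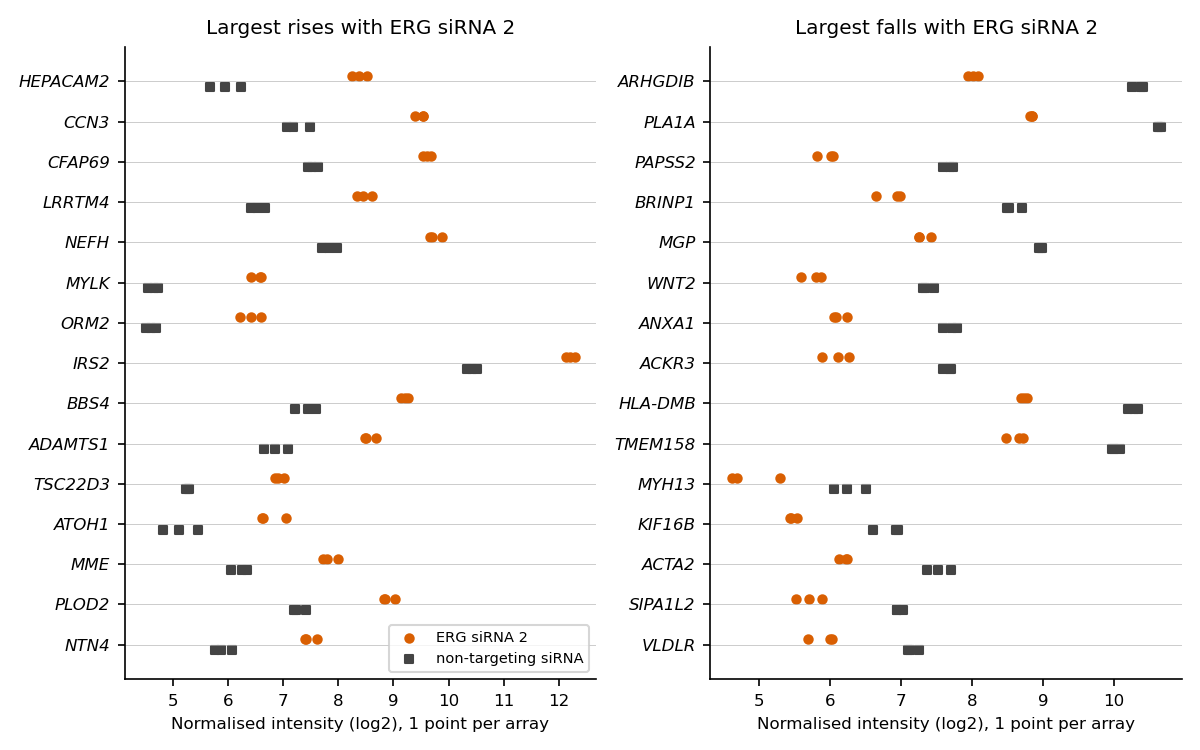
Normalised log2 intensity (x axis) of the 15 genes with the largest rise (left panel) and the 15 with the largest fall (right panel), 1 point per array, ERG siRNA 2 as circles above the non-targeting siRNA as squares. In no gene do the circles and squares overlap, as the rule for naming these genes required.

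The DMSO arrays, a second control, did not always lie at the level of the non-targeting arrays, so that their values are given beside these genes. Against the non-targeting arrays, 1671 genes were higher with DMSO (13.1% of all genes) and 1481 lower (11.6%). Over the 15 largest rises DMSO minus non-targeting siRNA ranged from -0.92 to 1.64 with a median of 0.31, and over the 15 largest falls from -0.92 to 1.37 with a median of -0.20. DMSO minus non-targeting siRNA was 1.52 for CFAP69, 1.64 for BBS4 and 0.79 for ADAMTS1, and -0.92 for HEPACAM2. It was 1.37 for ANXA1, -0.92 for SIPA1L2 and -0.58 for ARHGDIB. For IRS2, LRRTM4, BRINP1, HLA-DMB and TMEM158 it was -0.088, -0.09, -0.062, 0.023 and 0.10, in that order. Both differences subtract the same 3 non-targeting arrays. The DMSO cells carry no siRNA in their labels, and the part of such differences between the controls in the values above was not tested.

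Promoter sequences were at hand for 22 of these 30 genes, from RefSeq on GRCh38.p14. The ETS core in its form GGAAGT (on the other strand ACTTCC) was searched in the 250 bases before the start of each, and 4 genes held it, the falls ARHGDIB and BRINP1 and the rises BBS4 and NTN4. Their windows are shown as the ones among the 22 that held the core, in the direction of transcription, with the core in capitals. The windows are chr12:14948897-14949146 (minus strand) for ARHGDIB, chr9:119369436-119369685 (minus strand) for BRINP1, chr15:72685957-72686206 (plus strand) for BBS4 and chr12:95791156-95791405 (minus strand) for NTN4.
ARHGDIB: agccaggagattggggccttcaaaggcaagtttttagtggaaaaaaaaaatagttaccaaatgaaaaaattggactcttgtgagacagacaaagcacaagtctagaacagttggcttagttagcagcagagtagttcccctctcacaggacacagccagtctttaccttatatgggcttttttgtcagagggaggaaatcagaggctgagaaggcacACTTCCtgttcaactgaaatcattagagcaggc
BRINP1: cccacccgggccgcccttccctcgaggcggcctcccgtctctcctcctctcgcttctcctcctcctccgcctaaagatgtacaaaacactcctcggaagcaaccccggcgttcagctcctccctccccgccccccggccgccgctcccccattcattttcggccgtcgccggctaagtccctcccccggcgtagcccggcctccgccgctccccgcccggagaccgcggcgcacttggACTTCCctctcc
BBS4: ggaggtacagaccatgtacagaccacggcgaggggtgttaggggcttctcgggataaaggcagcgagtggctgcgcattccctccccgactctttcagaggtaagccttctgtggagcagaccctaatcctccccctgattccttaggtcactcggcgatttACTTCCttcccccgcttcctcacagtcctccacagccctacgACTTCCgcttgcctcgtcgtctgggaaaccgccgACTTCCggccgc
NTN4: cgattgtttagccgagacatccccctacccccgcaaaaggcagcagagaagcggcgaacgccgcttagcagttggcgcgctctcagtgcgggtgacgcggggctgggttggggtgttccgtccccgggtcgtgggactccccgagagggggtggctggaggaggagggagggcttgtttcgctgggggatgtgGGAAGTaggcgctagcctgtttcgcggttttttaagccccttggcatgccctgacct
The core began 33 bases before the start in ARHGDIB, 12 in BRINP1, 57 in NTN4, and 88, 46 and 12 in BBS4. Across all genes, a RefSeq window of 300 bases (250 before to 50 after the start) was found for 10132 of the 12744 tested. GGAAGT on either strand stood in 19.63% of 219 windows of genes that rose at least 1.5-fold, in 25.19% of 135 windows of genes that fell at least 1.5-fold, and in 26.71% of all windows. AGAACA, the core that the androgen receptor recognises, stood in 9.13%, 11.11% and 9.19% of these windows, and the general promoter element CCAAT in 33.79%, 40.0% and 37.35%. A letter match is no evidence of binding, and sites farther from the start were not searched.

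Androgen-induced genes, the transcripts that the androgen receptor raises in prostate cells, were higher with ERG siRNA 2. Of 39 measured members of the list 22 rose, where 10.0% of all genes did, and 0 fell; the median change was 0.38. TMPRSS2 read 12.49, 12.44 and 12.37 with ERG siRNA 2, against 11.12, 11.07 and 10.91 with the non-targeting siRNA, a change of 1.40 ± 0.087 (adjusted p = 5.06e-08). SLC45A3, the gene of the prostate protein prostein, read 12.74, 12.77 and 12.65, against 11.16, 11.22 and 11.24, a change of 1.51 ± 0.081, and the kallikrein protease KLK2 read 12.69, 12.69 and 12.68, against 12.13, 12.19 and 12.17, a change of 0.52 ± 0.085. In each of the 3 genes every ERG siRNA 2 array lay above every non-targeting array. Besides ADAMTS1 and TSC22D3, further rises were HPGD, which degrades prostaglandins (1.13 ± 0.098), the retinaldehyde dehydrogenase ALDH1A3 (95% confidence interval 0.87 to 1.13), the prostaglandin receptor PTGER4 (0.87 ± 0.10), KLK4 (0.39 ± 0.074) and FKBP5, a co-chaperone of steroid receptors (0.37 ± 0.086). NDRG1, a member that is also a stress and hypoxia gene, did not pass, at -0.16 ± 0.09 (adjusted p = 0.237). The single probe of KLK3, the gene of prostate-specific antigen, was detected on 1 of the 15 arrays and was not tested.

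Genes that androgen lowers moved the other way. Of 15 measured, 9 fell, where 8.59% of all genes did, and 2 rose, with a median of -0.68. ACKR3 fell most. ST7, a gene with putative tumour suppressor function, changed by -0.98 ± 0.075, and the butyrylcholinesterase gene BCHE by -0.83 ± 0.088. The enzymes that attach glucuronic acid to androgens changed by -0.68 ± 0.091 (UGT2B15) and -0.72 ± 0.067 (UGT2B17); the UGT2B genes are close copies of each other, and how far their probes cross-react was not tested. DDC, the decarboxylase of dopa and a known partner of the androgen receptor, read 6.63, 6.63 and 6.59 with ERG siRNA 2, against 7.47, 7.65 and 7.48 with the non-targeting siRNA, and fell by 0.91. The rises were SI, a sucrase of the intestine (0.47 ± 0.072), and TNFAIP8 (0.40 ± 0.13), whose call was lost without ERG siRNA 2 replicate 1 or 2 or without non-targeting replicate 1 or 2 (adjusted p = 0.0653 to 0.202). For DMSO minus non-targeting siRNA the list medians were 0.14 for androgen-induced and -0.25 for androgen-lowered genes, and DDC stood at 1.29. With DMSO, 15 androgen-induced genes were higher and 6 lower, and 1 androgen-lowered gene was higher and 6 lower. Among all genes 13.1% were higher with DMSO and 11.6% lower.

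Prostate luminal markers were also measured, of which 11 of 20 rose and 2 fell (median 0.32). Among all genes 10.0% rose and 8.59% fell. Besides TMPRSS2, SLC45A3 and KLK2, the keratin KRT19 rose by 0.91 ± 0.09, FOLH1, the prostate-specific membrane antigen, by 0.66 ± 0.10, and KRT8 by 0.39 ± 0.11, whose call was lost without ERG siRNA 2 replicate 1 or 3 or non-targeting replicate 1 or 2 (adjusted p = 0.0583 to 0.107). The lineage factors FOXA1 and HOXB13 and the epithelial adhesion gene EPCAM were at 0.18, 0.094 and 0.022 and did not pass the threshold. AMACR, a racemase of branched fatty acids and a prostate cancer marker, fell by 0.39, and AGR2 by 0.26; with AGR2 the call was lost in 5 of 6 fits with 1 array left out, those other than without ERG siRNA 2 replicate 2. DMSO minus non-targeting siRNA had a list median of 0.25, and AMACR and AGR2 stood there at 0.48 and 0.75. With DMSO, 10 of the 20 markers were higher than with the non-targeting siRNA and 1 was lower. Among all genes 13.1% were higher with DMSO and 11.6% lower.

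Genes that earlier studies linked to ERG-positive prostate tumours fell more often than they rose. Of 42 measured members 19 fell, ERG included, and 6 rose, where 8.59% of all genes fell and 10.0% rose, with a median of -0.20. The list was drawn up with earlier results of these arrays known, so that its direction is a description. Beside ARHGDIB, PLA1A, WNT2 and HLA-DMB, the potassium channel subunits KCNS3 and KCNH8 changed by -1.03 ± 0.094 and -0.93 ± 0.075, the calcium release channel ITPR3 by -0.89 ± 0.086, tissue factor F3 by -0.72 ± 0.15, and CRISP3, a secreted protein of the prostate, by -0.71 ± 0.17. CRISP3 read 5.65, 5.82 and 5.83 with ERG siRNA 2, against 6.83, 6.36 and 6.25 with the non-targeting siRNA. Members that rose included ADAMTS1, TFF1, a secreted trefoil peptide (1.38 ± 0.17), and HPGD. The Polycomb enzyme EZH2, named as an ERG target in other systems, stood at 0.063 and did not pass. The DMSO list median against the same controls was 0.0043.

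Of 18 measured ETS factors, 4 rose and 3 fell, where 10.0% of all genes rose and 8.59% fell. ETS2 read 6.42, 6.22 and 6.18 with ERG siRNA 2, against 7.36, 7.30 and 7.44 with the non-targeting siRNA, and changed by -1.10 ± 0.088 (adjusted p = 6.41e-07). Its groups did not overlap. ETV6, a repressor, changed by -0.60 ± 0.11. The epithelial members ELF5 and EHF changed by 0.85 ± 0.075 and 0.41 ± 0.09, ELK4 by 0.85 ± 0.16 and SPDEF, a factor of prostate and secretory epithelium, by 0.32 ± 0.072. For ELK4 3 other probes gave 0.19 to 0.52. The factors ETS1 and GABPA did not pass, at 0.14 and -0.21, and the probes of FLI1 and ETV1 were detected on 0 of the 15 arrays.

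**Figure D4:**
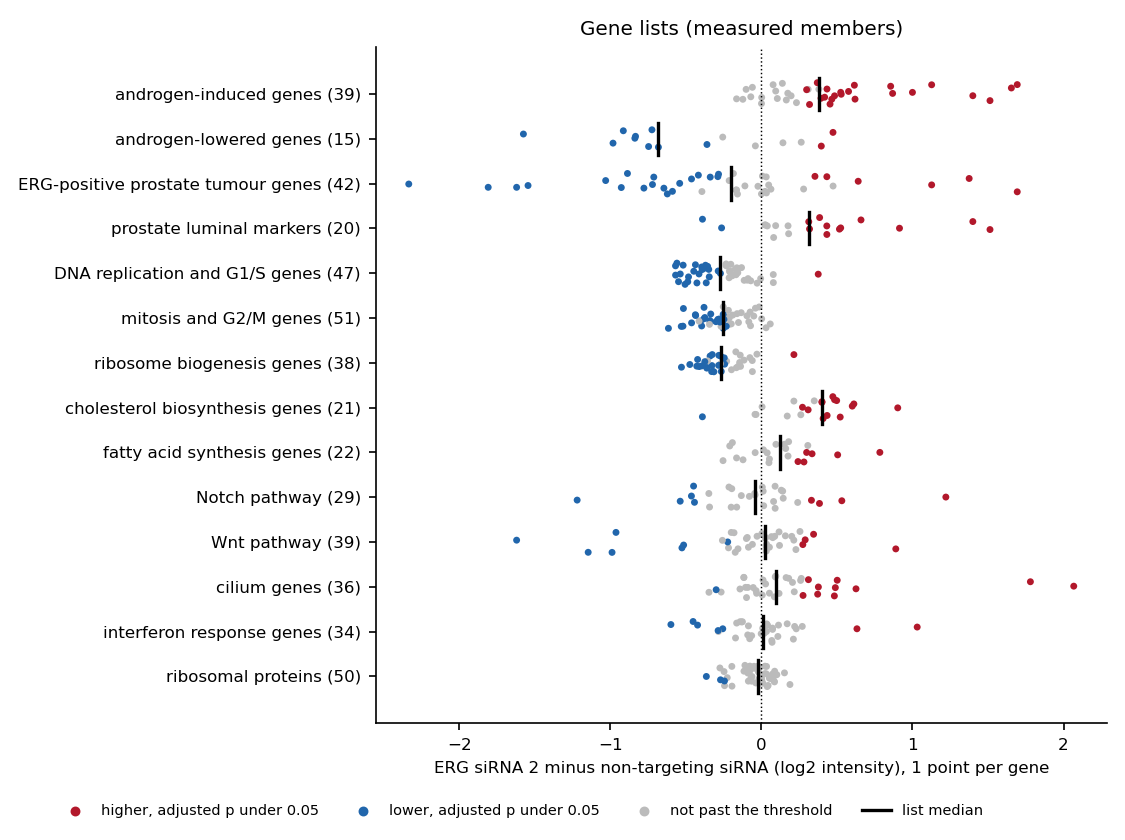
Difference in log2 intensity, ERG siRNA 2 minus non-targeting siRNA (x axis), of the measured members of 14 gene lists (number measured in brackets), 1 point per gene, red for genes that rose, blue for genes that fell, grey for genes not past the threshold, with a black bar at the list median. Androgen-induced and cholesterol genes lie to the right with medians of 0.38 and 0.40, and replication, mitosis and ribosome biogenesis genes to the left with medians of -0.27, -0.26 and -0.27.

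Genes of DNA replication and cell division were lower by small amounts. The replication and G1/S list had 47 measured genes, with 24 falls, 1 rise and a median of -0.27. The mitosis and G2/M list had 51, with 26 falls, 0 rises and a median of -0.26. Among all genes 8.59% fell and 10.0% rose. CDT1, which licenses replication origins, read 7.70, 7.73 and 7.86 with ERG siRNA 2, against 8.35, 8.24 and 8.40 with the non-targeting siRNA, a change of -0.57 ± 0.091 (adjusted p = 4.25e-04). The replicative helicase subunits MCM2 to MCM7 fell by 0.36 to 0.55. Cyclin B1, encoded by CCNB1, read 8.56, 8.70 and 8.47, against 9.27, 9.12 and 9.20, a change of -0.62 ± 0.095, and the kinetochore gene CENPF changed by -0.53 ± 0.081. In CDT1, CCNB1 and CENPF the groups did not overlap, as in 2338 of the 2372 called genes. The proliferation marker MKI67 stood at -0.072, and the list members cyclin D1, encoded by CCND1, and TOP2A stood at -0.0052 and -0.21. These 3 did not pass. Under other settings TOP2A passed without non-targeting replicate 1 (limma adjusted p = 0.0375), without background correction (0.0210) and with eBayes set to trend and robust (0.0248). The counts depended on the scaling, with the medians below 0 throughout: with median scaling 15 replication and 10 mitosis genes fell, and with no scaling between arrays 13 and 8. Without ERG siRNA 2 replicate 3, or without non-targeting replicate 2, 15 mitosis genes fell. The DMSO arrays had medians of -0.27 for the replication list and -0.85 for the mitosis list against the same non-targeting arrays, with CCNB1 at -0.92 and CENPF at -1.04.

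Ribosome biogenesis genes, which make and assemble ribosomal subunits in the nucleolus, were also lower by small amounts. Of 38 measured, with a median of -0.27, 21 fell and 1 rose, where 8.59% of all genes fell and 10.0% rose. The largest falls were those of NOB1, the endonuclease that finishes 18S rRNA (-0.53 ± 0.13), NOC3L (-0.47 ± 0.071) and LYAR (-0.43 ± 0.069), and FBL, the methyltransferase of rRNA, changed by -0.39 ± 0.075. With median scaling 10 fell and with no scaling 7, with medians below 0 throughout. MYC, a transcription factor that drives such genes, read 11.84, 12.00 and 11.80 with ERG siRNA 2, against 12.56, 12.45 and 12.36 with the non-targeting siRNA. Every ERG siRNA 2 array lay below every non-targeting array, and the change was -0.58 ± 0.088 (adjusted p = 2.78e-04; second probe -0.55). For DMSO minus non-targeting siRNA the list median was 0.063 and MYC stood at 0.056. The ribosomal proteins themselves had a median of -0.020 over 50 genes, of which 3 fell and 0 rose.

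Cholesterol biosynthesis genes were higher. Of 21 measured, 13 rose and 1 fell, where 10.0% of all genes rose and 8.59% fell. The list median was 0.40, and the count of rises was 10 to 14 under the other settings. SC5D, which makes a late double bond of the sterol ring, read 11.15, 11.23 and 11.14 with ERG siRNA 2, against 10.30, 10.07 and 10.43 with the non-targeting siRNA, a change of 0.90 ± 0.094. MSMO1, a sterol oxidase, changed by 0.61 ± 0.076 (other probes from -0.50 to 0.75), ACAT2, the cytosolic thiolase that starts the pathway, by 0.60 ± 0.10 (second probe 0.015), and HMGCS1, the HMG-CoA synthase, by 0.47 ± 0.093. SC5D had no overlap between the groups. SREBF2, the transcription factor of the pathway, was dim and stood at -0.39 ± 0.13 (adjusted p = 0.0445), with overlapping arrays and with its call lost without ERG siRNA 2 replicate 1 or 3 or non-targeting replicate 1 or 2 (adjusted p = 0.0965 to 0.209). DMSO minus non-targeting siRNA had a list median of -0.095. Of 22 fatty acid synthesis genes 6 rose and 0 fell (median 0.12), led by the elongase ELOVL2 (0.78 ± 0.095). With no scaling, or without ERG siRNA 2 replicate 1 or non-targeting replicate 2, 2 rose, and without ERG siRNA 2 replicate 2, 3. FASN and ACACA, the main enzymes of that pathway, did not pass, at 0.18 and 0.15.

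Notch and Wnt genes changed in both directions, with list medians near that of all genes. Of 29 Notch genes 4 rose and 5 fell, where 10.0% of all genes rose and 8.59% fell, with a median of -0.042. HES6, which opposes the Notch effector HES1, read 9.56, 9.62 and 9.59 with ERG siRNA 2, against 8.27, 8.29 and 8.55 with the non-targeting siRNA, and changed by 1.22 ± 0.087 (adjusted p = 1.94e-07). LFNG, a glycosyltransferase that modifies Notch receptors, read 5.43, 5.03 and 5.51, against 6.53, 6.60 and 6.50, and changed by -1.22 ± 0.14, while its 2 other probes gave -0.045 and 0.11. The receptor NOTCH1 changed by -0.54 ± 0.083 and the effectors HES1 and HEY1 by -0.45 ± 0.13 and -0.46 ± 0.10; a second HEY1 probe gave 0.19. The ligands JAG1, JAG2 and DLL1 did not pass, at -0.20, -0.34 and -0.35. JAG2 passed without background correction, with the mean of its probes and with only the groups compared (limma adjusted p = 0.0121 to 0.0268). With eBayes set to trend and robust, JAG2 (0.0194) and DLL1 (0.0490) passed. Falls numbered 3 without ERG siRNA 2 replicate 1 or 3 or non-targeting replicate 1. The call of HES1 was lost in 5 of the 6 fits with 1 array left out (adjusted p = 0.0531 to 0.0692), all but that without non-targeting replicate 2, and DLL1 passed without non-targeting replicate 3 (adjusted p = 0.0209).

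Of 39 Wnt genes 4 rose and 7 fell (median 0.026), where 10.0% of all genes rose and 8.59% fell. Among ligands, WNT2 fell as given above, and WNT5A, a ligand of the branch that does not use beta-catenin, was detected on 3 of 3 ERG siRNA 2 arrays and 0 of 3 non-targeting arrays and was at least 1.69-fold higher. Among receptors, ROR1 changed by -1.15 ± 0.12 (other probes from -1.09 to 0.15), FZD8 by -0.99 ± 0.13, FZD4 by -0.96 ± 0.11 and the co-receptor LRP5 by -0.53 ± 0.12. WLS, which carries Wnt ligands to the cell surface, changed by -0.52 ± 0.084. With the mean of its probes it stood at -0.21 and lost its call (limma adjusted p = 0.0949). The feedback target AXIN2 and beta-catenin, encoded by CTNNB1, did not pass, at 0.26 and 0.20. With median scaling, or without ERG siRNA 2 replicate 1 or non-targeting replicate 3, 2 genes rose, and with no scaling 1.

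Cilium genes and genes of secretory cells held several of the largest rises. Of 36 cilium genes 10 rose and 1 fell (median 0.093), where 10.0% of all genes rose and 8.59% fell. After CFAP69 and BBS4, the transport proteins IFT57 and IFT43 changed by 0.63 ± 0.085 and 0.50 ± 0.10, and the BBSome genes TTC8 and BBS1 by 0.49 ± 0.14 and 0.28 ± 0.09. TTC8 lost its call in 5 of the 6 fits with 1 array left out, all but that without ERG siRNA 2 replicate 3, and BBS1 in all 6. The count of rises was 5 without ERG siRNA 2 replicate 2, and 6 without any 1 non-targeting array or with no scaling. In the list around ATOH1, a factor that directs secretory fate in the gut, 7 of 22 genes rose and 4 fell (median 0.12). With HEPACAM2, ATOH1 and TFF1, the trefoil peptide TFF3 rose by 0.43 ± 0.098. The zinc finger factor GFI1 was detected on 3 of 3 ERG siRNA 2 arrays and 0 of 3 non-targeting arrays and was at least 1.12-fold higher. REG4, a secreted lectin, read 4.74, 4.83 and 5.13 with ERG siRNA 2, against 5.74, 5.95 and 6.20 with the non-targeting siRNA, and changed by -1.06 ± 0.12, while DMSO minus non-targeting siRNA was 4.03 for it. The fall count was 1 without ERG siRNA 2 replicate 1 or non-targeting replicate 1, and 2 without ERG siRNA 2 replicate 3 or non-targeting replicate 2.

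Neuronal, adhesion and protease genes moved in both directions. Of 22 neuroendocrine and neuronal genes 4 rose and 3 fell (median 0.051), where 10.0% of all genes rose and 8.59% fell. After LRRTM4, the neuronal tubulin TUBB3 changed by 0.91 ± 0.073, while the neuroendocrine granule gene CHGA did not pass, at 0.21. The rises numbered 2 with no scaling, and 2 without ERG siRNA 2 replicate 1 or 2 or non-targeting replicate 1. Of 27 adhesion, annexin and chemokine receptor genes 6 rose and 5 fell (median 0.038). The annexin ANXA2 changed by 1.03 ± 0.098, the cadherins CDH3 and CDH1 by 0.95 ± 0.12 and 0.31 ± 0.071, and the laminin receptor subunit ITGA6 by -0.59 ± 0.14. ANXA2 and ANXA1 thus changed in opposite directions. Of 26 extracellular proteases and inhibitors 3 rose and 1 fell (median 0.072), the rises being ADAMTS1, the protease inhibitor SERPINE2 (0.82 ± 0.12) and the metalloprotease MMP11 (0.70 ± 0.15).

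Growth factor feedback and oxygen response genes changed in both directions. Of 32 immediate early and feedback genes 5 rose and 4 fell, where 10.0% of all genes rose and 8.59% fell. In that list the feedback inhibitors of receptor tyrosine kinases SPRY1, SPRED2 and SPRY2 changed by -1.06 ± 0.08, -0.58 ± 0.11 and -0.50 ± 0.14. SPRY1 averaged 7.84 ± 0.14 with ERG siRNA 2 and 8.90 ± 0.039 with the non-targeting siRNA (SD, n = 3 each), without overlap. The call of SPRY2 was lost without ERG siRNA 2 replicate 1 or 3 or non-targeting replicate 2 or 3 (adjusted p = 0.0510 to 0.0873). EGR1 changed by 0.43 ± 0.094 and DUSP1 by 0.49 ± 0.073. In the hypoxia and glycolysis list 2 of 37 rose and 9 fell. EPAS1, also called HIF2A, read 6.23, 5.91 and 5.83, against 7.19, 7.15 and 7.22, a change of -1.19 ± 0.11. The glucose transporter SLC2A3 changed by -1.05 ± 0.13 and the carbonic anhydrase CA12 by -1.01 ± 0.082, while HIF1A and the glycolytic genes GAPDH and LDHA did not pass, at 0.073, -0.026 and -0.14. DMSO minus non-targeting siRNA was 0.61 for EPAS1, 0.50 for SLC2A3 and -0.19 for SPRY1.

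Of 34 interferon response genes, which respond to foreign double-stranded RNA, 2 rose and 5 fell (median 0.013), where 10.0% of all genes rose and 8.59% fell. The rises were the ubiquitin-like ligase genes HERC5 (1.03 ± 0.076) and HERC6 (0.63 ± 0.12), for which DMSO minus non-targeting siRNA was 0.56 and 0.75. MX1 and the membrane proteins IFITM3 and IFITM2 changed by -0.42 ± 0.094, -0.45 ± 0.11 and -0.60 ± 0.11, and ISG15, IFIT1 and OAS3 did not pass, at 0.073, 0.0085 and -0.065. Without ERG siRNA 2 replicate 1 or 2 or non-targeting replicate 3, and with median or no scaling, 3 fell. Of 16 genes of the RNA interference machinery 1 rose, AGO4, detected on 3 of 3 ERG siRNA 2 arrays and 0 of 3 non-targeting arrays and at least 1.12-fold higher, a call lost without ERG siRNA 2 replicate 1 or 3 or non-targeting replicate 2 or 3, and AGO2 and DICER1 did not pass, at -0.082 and 0.22.

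Lysosome and stress genes held changes in both directions. Of 29 autophagy and lysosome genes 10 rose and 1 fell (median 0.16), where 10.0% of all genes rose and 8.59% fell. The sialidase NEU1 changed by 0.89 ± 0.10 and MAP1LC3A, a membrane anchor of autophagosomes, by 0.49 ± 0.079, and ATG7, an enzyme needed to attach it, fell by 0.77. The rises numbered 5 or 6 without ERG siRNA 2 replicate 1 or 3 or non-targeting replicate 1 or 2, and 3 with no scaling. Of 31 genes of ATF4 and the integrated stress response 1 rose and 7 fell (median -0.030), with the pseudokinase TRIB3 at -0.51 ± 0.074; 3 fell with median scaling and 2 with no scaling. Of 22 p53 targets 5 rose and 3 fell (median 0.045). The cell cycle inhibitor CDKN1A changed by 0.58 ± 0.089 (second probe 0.023), the death receptor FAS by -0.81 ± 0.081 and GADD45A by -0.55 ± 0.12, and MDM2 did not pass, at 0.18. The p53 target rises numbered 3 without ERG siRNA 2 replicate 1 or non-targeting replicate 1.

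Of 23 apoptosis regulators 3 rose and 1 fell (median 0.11), where 10.0% of all genes rose and 8.59% fell. The fall was that of BIRC5, also called survivin (-0.44 ± 0.085). The same all-gene shares apply to each list below. Of 30 heat shock chaperones 4 rose and 2 fell (median -0.012), with HSPB1 at 0.59 ± 0.094. Of 30 proteasome subunits 5 rose and 0 fell (median 0.071), the largest rise being that of PSMC6 (0.30). With the mean of its probes PSMC6 stood at 0.16 and lost its call (limma adjusted p = 0.146). Without ERG siRNA 2 replicate 1 or 3 or non-targeting replicate 1, 1 proteasome subunit rose, without the other arrays 2 or 3, and with median or no scaling 0. Of 33 Polycomb, HDAC and DNA methyltransferase genes 3 rose and 3 fell (median -0.012), and with no scaling 0 did in either direction; without ERG siRNA 2 replicate 3 or non-targeting replicate 1, 1 fell. Of 52 oxidative phosphorylation genes 2 rose and 4 fell (median 0.013), and 2 fell without non-targeting replicate 1. In contrast, 9 rose without background correction, and 9 with eBayes set to trend and robust. The rise count was 1 without any 1 array. Of the 13 deubiquitinase and ERG turnover genes 0 passed in either direction with limma, nor did any at an unadjusted p under 0.05, and USP9X, a deubiquitinase reported to stabilise ERG, stood at -0.079 ± 0.098 (adjusted p = 0.643). Of 11 MYC network genes 0 rose and 2 fell (median -0.11), MYC and its antagonist MNT (-0.37 ± 0.093); without non-targeting replicate 1, 1 fell.

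Some genes crossed the detection threshold. Probes detected on all 3 ERG siRNA 2 arrays and 0 non-targeting arrays numbered 225, and in 72 genes every probe of the gene was so detected. The reverse held for 41 probes, and for every probe of 12 genes. The ERG siRNA 2 arrays detected more probes in all, as given above, and the part of this in these counts was not tested. After ORM2, at least 2.66-fold higher, RLN1 and WNT5A, the RNase gene ZC3H12A was at least 1.63-fold and the protocadherin PCDH19 at least 1.49-fold higher with ERG siRNA 2. Detected only with the non-targeting siRNA were the annexin ANXA10, at least 1.68-fold lower with ERG siRNA 2, CA8, a protein of the carbonic anhydrase family (at least 1.51-fold lower), the adhesion receptor ADGRF5 (at least 1.47-fold lower), CBLC, an E3 ligase (at least 1.34-fold lower) and SCUBE2 (at least 1.31-fold lower). The call of CBLC was lost without ERG siRNA 2 replicate 3 or non-targeting replicate 3 (adjusted p = 0.0603 and 0.0729). Each bound sets the mean of the brighter group against the lowest signal that counted as detected on the other group's arrays or, where it was higher, the probe's own signal.

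Markers of other cell types gave a check of the cell line label. Of 10 luminal markers 9 were detected on all 3 arrays of both groups, the exception being KLK3. The basal keratins KRT5 and KRT14 were detected on 0 arrays of either group, as were the fibroblast collagens COL1A1, COL1A2 and COL3A1; of 5 fibroblast markers 1, LUM, was detected on all 3 arrays of both groups. LUM, a matrix proteoglycan, changed by 0.90 ± 0.091, and was at 1.32 for DMSO minus non-targeting siRNA. The summed raw intensity of the 5 fibroblast markers was 1603 to 1708 with ERG siRNA 2, against 1376 to 1498 with the non-targeting siRNA. Of 4 blood markers on the array 1, CD14, was detected on all 3 arrays of both groups and changed by -0.54 ± 0.075, and the leukocyte gene PTPRC was detected on 0. The blood marker sum was 1002 to 1047, against 1043 to 1138. ARHGDIB, the largest fall, is itself a member of the longer blood cell list, of which 1 of 7 rose and 3 fell. Among all genes 10.0% rose and 8.59% fell. Of 7 measured fibroblast and smooth muscle markers 3 rose and 2 fell, of 4 basal markers 1 rose and 1 fell, and of 3 endothelial markers 1, VWF, fell, a call lost without ERG siRNA 2 replicate 3 or non-targeting replicate 2 or 3 (adjusted p = 0.0671 to 0.0705). The part of these genes in the results above was not tested.

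ERG siRNA 2 was then set against ERG siRNA 1 directly. The difference itself leaves the non-targeting arrays out, but they entered the estimate of the spread behind its p-values. At an adjusted p under 0.05, 15 of the 12744 genes differed (0.118%), 8 higher and 7 lower with ERG siRNA 2, and 1111 at an unadjusted p under 0.05. The median 95% interval reached 0.21 on the log2 scale to either side of the difference, and the smallest difference called was -0.47, that of GMDS. The count of 15 does not show that both siRNAs act alike elsewhere. Over the 30 genes with the largest changes the direct difference ranged from -0.31 to 0.58, and 1 of them, NEFH, passed. For ERG itself it was -0.072 ± 0.18 (adjusted p = 0.934). The count was 59 without background correction, 36 with eBayes set to trend and robust, 6 with median scaling, 3 with no scaling between arrays, and 1 when the fit held only the 6 arrays of both siRNAs. It was 9 without ERG siRNA 2 replicate 1 and 9 without ERG siRNA 1 replicate 2.

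GULP1, an adaptor for the uptake of dying cells, differed most. It read 7.54, 7.48 and 7.48 with ERG siRNA 2, against 6.24, 6.48 and 6.57 with ERG siRNA 1, a difference of 1.07 ± 0.10 (adjusted p = 3.85e-04). The ERG siRNA 2 arrays lay among the non-targeting arrays, which read 7.32, 7.48 and 7.60. RLN1, the gene of a relaxin hormone and nearly identical to RLN2, read 5.74, 6.13 and 5.84 with ERG siRNA 2, against 6.78, 7.01 and 6.80 with ERG siRNA 1 and 4.46, 4.56 and 4.44 with the non-targeting siRNA, where it was detected on 0 of 3 arrays. It was at least 1.88-fold higher with ERG siRNA 2 than with the non-targeting siRNA, and differed by -0.96 on the log2 scale from ERG siRNA 1. NEFH read 9.89, 9.70 and 9.67, against 9.20, 9.18 and 9.17 with ERG siRNA 1 and 7.83, 7.70 and 7.98 with the non-targeting siRNA, a direct difference of 0.57 ± 0.10 (adjusted p = 0.0438). The call of NEFH was lost in 14 of 20 other settings, among them the replicate block and the fits without any 1 array of either ERG siRNA or without non-targeting replicate 1 (adjusted p = 0.0635 to 0.210 with an array left out). THBS1, a secreted inhibitor of angiogenesis, read 9.61, 9.59 and 9.52, against 8.96, 8.99 and 8.83 with ERG siRNA 1 and 10.28, 10.42 and 10.53 with the non-targeting siRNA. Its fall was smaller with ERG siRNA 2, by 0.65 ± 0.076 (adjusted p = 0.00244).

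Another 6 genes fell with ERG siRNA 2 against the non-targeting siRNA and also stood below ERG siRNA 1. GCSH, a carrier protein of the mitochondrial glycine cleavage system, read 8.73, 8.74 and 8.85 with ERG siRNA 2, against 9.25, 9.34 and 9.30 with ERG siRNA 1 and 9.40, 9.43 and 9.40 with the non-targeting siRNA. GMDS, which makes GDP-fucose precursors, PAN3, a subunit of an mRNA deadenylase, SHANK2, a scaffold of synapses, SASS6, a building block of centrioles, and DDC had direct differences of -0.47 ± 0.077, -0.53 ± 0.075, -0.51 ± 0.091, -0.58 ± 0.10 and -0.59 ± 0.094. With GCSH at -0.52 ± 0.065, the 6 adjusted p-values lay between 0.00268 and 0.0438. The calls of SHANK2 and SASS6 were each lost in 15 of 20 other settings, among them the replicate block. With 1 array left out SHANK2 lost its call except without ERG siRNA 2 replicate 2 (adjusted p = 0.0593 to 0.171), and SASS6 lost it except without non-targeting replicate 1 or 2 (0.0593 to 0.181). GMDS and DDC each lost their calls in 9 settings, among them the fits without any 1 ERG siRNA 2 array and without ERG siRNA 1 replicate 2 or 3 (0.0614 to 0.123 and 0.0669 to 0.116). GCSH and PAN3 kept theirs with each array left out. PLA2G2A, a secreted phospholipase, was at 0.32 with ERG siRNA 2 and -0.29 with ERG siRNA 1 against the non-targeting arrays, which both values share. Its call with ERG siRNA 2 against the non-targeting siRNA was lost without ERG siRNA 2 replicate 3 (adjusted p = 0.0705) and without non-targeting replicate 2 (0.0826), and so was that of SASS6 (0.0543 and 0.0733).

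**Figure D5:**
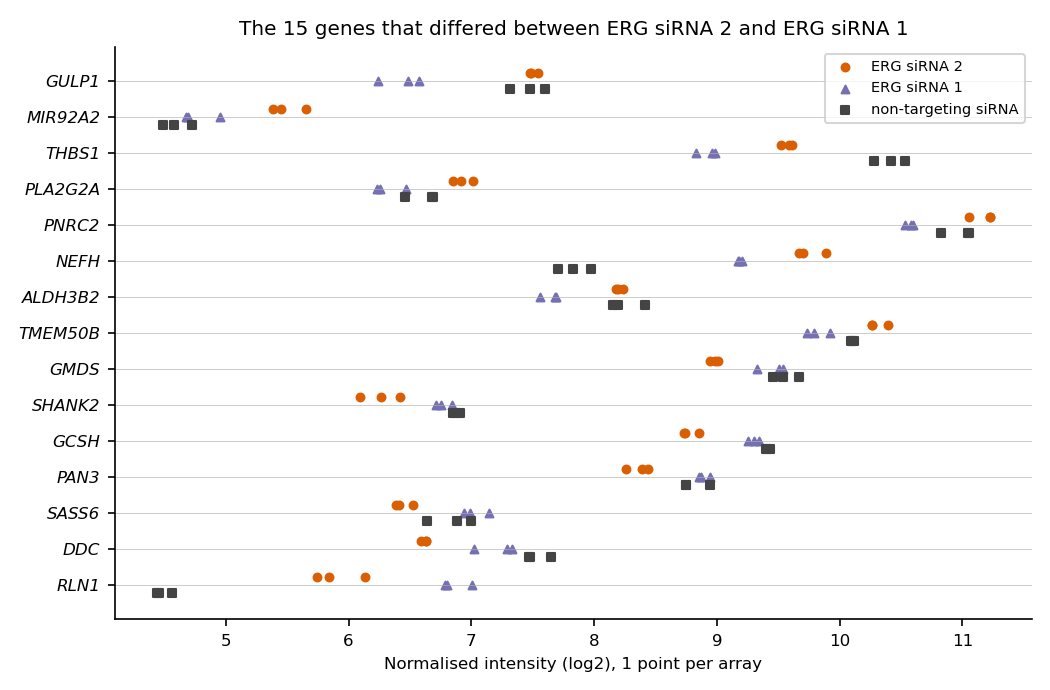
Normalised log2 intensity (x axis) of the 15 genes that differed between both ERG siRNAs, 1 point per array, with ERG siRNA 2 as circles, ERG siRNA 1 as triangles and the non-targeting siRNA as squares. GULP1 and ALDH3B2 stay among the squares with ERG siRNA 2, and RLN1 lies between the squares and the triangles.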

How the data were processed

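RNA of VCaP cells was extracted with an RNAeasy kit, copied into biotin-labelled cRNA and hybridised to Illumina HumanHT-12 v4 BeadChips, per the labels' protocols. The deposited table holds raw bead intensity for each probe on 15 arrays in 5 groups, with a detection p-value beside each intensity, per the file headers. Per the submitters' processing notes GenomeStudio was used, in an unstated version and role. A second deposited table holds processed intensity on a linear scale. The authors' columns in it share 1 distribution with a median of 9.50, and the method that made it is not stated.

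The raw intensities were background-corrected with normexp, quantile normalised and put on the log2 scale with an offset of 16 (neqc of limma 3.58.1, R 4.3.3). Probes with a detection p-value under 0.05 on at least 3 of the 15 arrays were kept, 23281 of 47322. Of all probes, 30113 had 1 gene symbol in the platform annotation, 8 had several and 17201 were not listed; 17078 kept probes had 1 symbol. The brightest probe on average stood for each of 12744 genes, of which 3351 had several probes. A linear model with 5 groups and 10 residual degrees of freedom (lmFit, eBayes) gave differences, standard errors and two-sided p-values, adjusted over all genes by Benjamini-Hochberg, with calls at an adjusted p under 0.05. Where all arrays of 1 group lie above all arrays of the other, the text says that the groups do not overlap. A probe detected on no array of a group has only a bound there.

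The groups, the genes named and the 36 gene lists were chosen with earlier results of these data known, so that the lists are described by counts and medians with no test. The text names the 15 largest rises and falls among called genes whose arrays do not overlap, a fixed set of ERG and androgen genes, up to 3 rises and 3 falls of each list and its members that were not called, all genes that differed between both ERG siRNAs, and up to 5 genes in each direction seen with 1 siRNA only. Further list members were named after their values were seen. Promoter windows came from RefSeq (GRCh38.p14) and were matched by symbol. The alternatives tried were no background correction, median or no scaling, the authors' processed values with a pseudocount of 1, no filter and a stricter one, only the groups compared, the replicate number as a block, trend and robust options, the mean of a gene's probes, an adjusted p under 0.01, and leaving out each array, of which the ERG siRNA 1 arrays were added after seeing the data. The WP1130 arrays entered the model but no comparison. No 2 arrays held identical values.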

Additional observations from a re-analysis of the deposited data

Results flagged for a closer look

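The 15 genes listed here differed between ERG siRNA 2 and ERG siRNA 1 in a direct test (limma adjusted p from 0.000385 to 0.0438), that is, their level differed between cells given either ERG siRNA. Of these, 8 were higher with ERG siRNA 2. The difference in log2 intensity, ERG siRNA 2 minus ERG siRNA 1, was 1.07 for GULP1, 0.72 for MIR92A2, 0.65 for THBS1, 0.61 for PLA2G2A, 0.60 for PNRC2, 0.57 for NEFH, 0.56 for ALDH3B2 and 0.49 for TMEM50B. The other 7 were lower with ERG siRNA 2, by differences of -0.47 for GMDS, -0.51 for SHANK2, -0.52 for GCSH, -0.53 for PAN3, -0.58 for SASS6, -0.59 for DDC and -0.96 for RLN1.

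GULP1, PNRC2, ALDH3B2 and TMEM50B were not called for ERG siRNA 2 against the non-targeting siRNA, at 0.038, 0.19, -0.048 and 0.20. The call of NEFH was lost in 14 of 20 other settings, SHANK2 and SASS6 in 15 each, GMDS and DDC in 9 each, TMEM50B in 6, PNRC2 in 4, MIR92A2, GCSH and PAN3 in 3 each, and THBS1, PLA2G2A, ALDH3B2 and RLN1 in 2 each; GULP1 kept it in all 20. TMEM50B lost it without ERG siRNA 2 replicate 1 or ERG siRNA 1 replicate 2 (adjusted p = 0.0649 and 0.0548). The MIR92A2 probe is annotated to a microRNA gene, and which transcript it measures was not tested. It read 5.45, 5.65 and 5.38 with ERG siRNA 2, against 4.68, 4.95 and 4.69 with ERG siRNA 1 and 4.49, 4.58 and 4.72 with the non-targeting siRNA. It was detected on 3 of 3 ERG siRNA 2 arrays and on 0 arrays of the other groups named here, so that only a bound holds, at least 1.45-fold higher with ERG siRNA 2 than with ERG siRNA 1. PNRC2, a cofactor of mRNA decapping, read 11.22, 11.05 and 11.23 with ERG siRNA 2, against 10.58, 10.54 and 10.60 with ERG siRNA 1 and 10.82, 11.04 and 11.06 with the non-targeting siRNA. In both genes all 3 arrays of ERG siRNA 2 lay above all 3 of ERG siRNA 1.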

How the results depend on the processing

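Calls for ERG siRNA 2 against the non-targeting siRNA numbered 2372. They fell to 1188 with no scaling between arrays and to 1338 at an adjusted p under 0.01. Rises numbered 710 and 762 under these settings, against 1277, and falls 478 and 576, against 1095; with median scaling falls numbered 526. Calls of at least 1.5-fold numbered 122 without background correction and 773 with the authors' processed values, against 467. With 1 array left out there were 1697 to 1886 calls, 927 to 1035 rises, 770 to 859 falls and 454 to 501 calls of at least 1.5-fold, and the ERG difference lay between -0.95 and -0.57. Genes that differed between both ERG siRNAs numbered 59 without background correction, 36 with trend and robust options, 6 with median scaling, 3 with no scaling, 1 with only the groups compared, and 9 to 15 with 1 array left out, against 15. The cause of these moves was not tested, except that fewer arrays enter the fits with an array or group left out.

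With the replicate block 2315 genes were called, 1244 up and 1071 down, ERG kept its call (adjusted p = 0.0154), and 13 genes differed between the siRNAs. Whether the shared replicate numbers pair the arrays is not stated in the labels. Deviations of same-numbered arrays correlated at -0.013, -0.021 and 0.013, and 1 of 6 arrays correlated best with its own number. These values gave no sign of pairing, but they cannot settle it, since a weak shared effect could be missed with so few arrays.

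Of 242 named genes, 157 kept their direction and side of the threshold under all 17 alternatives, and 168 of the 208 called stayed called with each array left out. Values that changed sign belonged to genes near 0 that were not called. With 1 array left out, GULP1 lay between -0.036 and 0.10, ALDH3B2 between -0.099 and 0.033, CCND1 between -0.067 and 0.029, EPCAM between -0.0050 and 0.053, EZH2 between -0.085 and 0.19, and GAPDH between -0.071 and 0.021. HIF1A lay between -0.0014 and 0.14, IFIT1 between -0.085 and 0.19, ISG15 between -0.021 and 0.13, MKI67 between -0.19 and 0.034, and OAS3 between -0.13 and 0.050. ALDH3B2 was 0.012 and EPCAM -0.076 with median scaling. With no scaling EPCAM was -0.11 and IFIT1 -0.0070. With the mean of a gene's probes EPCAM was -0.057 and EZH2 -0.075. The tested ERG probe was dim, and how precision depended on the brightness of a probe was not tested.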
